A study of Mus musculus with 7 samples.

Results

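The mitochondrial quality control genes examined here were 10: 8 encode proteases or a protease subunit (Clpx, Clpp, Lonp1, Afg3l2, Spg7, Yme1l1, Oma1 and Htra2) and the others encode the prohibitins (Phb and Phb2). They were followed in quadriceps muscle of C57BL/6 mice on single-dye Agilent expression arrays, 1 array per mouse, with 4 WT and 3 AR113Q mice whose age the labels give as 3 months and the design text as 90 days. AR113Q mice are a knock-in model of spinal and bulbar muscular atrophy (SBMA) that carries an expanded CAG repeat. The labels call the controls WT, whereas the text of the study describes a knock-in control line of normal repeat length, and the design text adds the letters NCD to the AR113Q name without explaining them. The question was how these transcripts differed between the genotypes at an age before motor signs. Probes were matched by gene name or by RefSeq accession, which gave 13 probes of 39429 on the array: Htra2, Phb and Phb2 had 2 each and the remaining 7 genes had 1 each. All 13 were well above background on all 7 arrays. The set was chosen by its measured values, since it was put together around Clpx, whose difference between the genotypes on these same arrays was known. The values of the 13 probes, and the counts of calls given once for the whole set, are therefore a description and support nothing.

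Proteins inside mitochondria are turned over by ATP-dependent proteases that sit in the matrix or in the inner membrane. In the matrix, CLPX, an AAA+ unfoldase, threads substrates into the chamber formed by the peptidase CLPP, and it also acts without CLPP on the first enzyme of heme synthesis; LONP1 combines both activities in 1 chain. In the inner membrane, AFG3L2 and SPG7 (paraplegin) form the m-AAA protease and YME1L1 the i-AAA protease, and OMA1 is a stress-activated metalloprotease that, like YME1L1, cleaves the fusion protein OPA1. HTRA2 is a serine protease of the intermembrane space. PHB and PHB2 assemble together into a ring scaffold of the inner membrane that binds the m-AAA protease.

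A probe of 60 bases stands for each transcript, so each level is the level of the transcripts that hold those bases. The Clpx probe, which carries the largest difference, and the probes of both prohibitins, where probes of 1 gene can be compared, are shown here by a stretch of 30 bases read from the scanner files, with the polyadenylation hexamer AATAAA in capitals where it occurs.
Clpx A_51_P304683: ctcggatatcatacatggtcaaaagccttt
Phb A_51_P165934: tctcaaatacccaatgggattccagcttga
Phb A_55_P2145908: taaagtgaaggaAATAAAggtaaaatcact
Phb2 A_55_P2157019: ggagcgagtgctgccgtccattgttaatga
Phb2 A_66_P126523: ccagaacatctctaaaacgatcgccacatc
On mm9, the build of the array annotation, the Clpx probe lay at chr9:65177803-65177862 on the plus strand. The Phb probes lay at chr11:95541869-95541928 and chr11:95541283-95541342, also on the plus strand and 586 bases apart. Probe A_55_P2157019 of Phb2 lay at chr6:124664096-124664155 on the plus strand, and the annotation gives no position for A_66_P126523. Exons and untranslated regions of mm9 were not used here, so the part of the transcript that a probe reads is not given. The hexamer occurred in 4 of the 13 probes (Lonp1, Afg3l2, Htra2 A_55_P1973699 and Phb A_55_P2145908) and in 14% of the 20987 probes kept for the comparison.

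The start sites of Clpx and Clpp were compared because these partners of 1 protease moved apart on the arrays. The 250 bases before the start are given 5′ to 3′ on the gene's strand, from RefSeq on GRCm38.p6, chr9:65294010-65294259 for Clpx and chr17:56990014-56990263 for Clpp, both on the plus strand. Matches to the motifs described next are in capitals, and the Clpp window holds none.
Clpx: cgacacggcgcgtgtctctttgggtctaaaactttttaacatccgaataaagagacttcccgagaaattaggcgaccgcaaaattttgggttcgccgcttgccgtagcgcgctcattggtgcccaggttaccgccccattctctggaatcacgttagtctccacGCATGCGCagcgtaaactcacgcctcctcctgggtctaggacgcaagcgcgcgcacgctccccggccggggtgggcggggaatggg
Clpp: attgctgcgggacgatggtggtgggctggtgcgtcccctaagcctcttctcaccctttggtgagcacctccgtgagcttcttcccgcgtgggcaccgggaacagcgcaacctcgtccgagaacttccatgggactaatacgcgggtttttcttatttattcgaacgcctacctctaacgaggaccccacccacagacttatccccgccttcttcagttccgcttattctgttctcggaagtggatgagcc
Motifs were searched by their letters on both strands of this window in 8 of the 10 genes and in all 32851 promoters of the table, and no matches overlapped in these genes. The core of the nuclear respiratory factor 1 site, GCATGCGC, occurred before Clpx, from 86 to 79 bases upstream, in none of the other 7 genes searched, and in 2.26% of all promoters. The canonical E-box CACGTG occurred before Lonp1 and Phb and in 6.02% of all promoters. The composite ATF4 element TGATGNAA (3.45% of all promoters), the cyclic AMP response element TGACGTCA (1.55%) and the estrogen-related receptor site AAGGTCA (4.08%) were found before none of the 8. These are matches of letters and say nothing about binding.

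Arrays stood apart within each genotype in the markers of slow muscle fibers. Myh7, the slow myosin heavy chain, measured 4.95, 12.56, 11.89 and 6.66 in WT and 6.66, 6.22 and 13.59 in AR113Q, so that WT arrays 2 and 3 and AR113Q array 3 were high. The summed normalized intensity of 6 slow fiber markers ran from 3818 to 52642 in WT and from 5396 to 118875 in AR113Q. Slide 2, the only slide with both genotypes, pairs the second WT array, which was high in these markers, with the first AR113Q array, which was low. The part of slow fiber content in the differences that follow was not tested; values over the 4 arrays low in slow markers, a setting chosen after seeing the data, are given beside the set as a whole.

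Clpx, the unfoldase, had the largest difference of the 13 probes. Its log2 intensity after quantile normalization was 10.46, 10.51, 10.41 and 10.76 in WT and 12.79, 12.73 and 12.61 in AR113Q. The lowest AR113Q array lay above the highest WT array, and the 3 AR113Q arrays were close to each other (SD 0.096, against 0.15 in WT). The group means were 12.71 and 10.53, a difference of 2.18 ± 0.15 (SE; n = 3 and 4), or 4.52-fold. In the scanner signal before normalization, the probe read 922 to 1496 in WT and 7656 to 9088 in AR113Q, where the median probe was also 0.48 higher on the log2 scale in AR113Q; after normalization the median difference was 0.015. Clpx stood at place 474 of the 20987 kept probes when ordered by increase, so that 2.25% of probes had a larger one. On the 1 slide that held both genotypes the difference was 2.29. Because whole muscle was measured, fewer cells of a type cannot be told apart from less RNA per cell, here and in all values that follow.

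Clpp, the peptidase that works with CLPX, did not share this difference. Its log2 intensity was 10.24, 10.04, 10.13 and 10.01 in WT and 10.01, 9.45 and 10.06 in AR113Q. The groups overlapped, with the second AR113Q array below the others. The difference was -0.27 ± 0.19 (SE), and -0.07 without that array. Subtracting Clpp from Clpx within each array, and the mean of WT from the result, gave 2.36, 2.86 and 2.12 in AR113Q against -0.21 to 0.32 in WT. Lonp1, the other matrix protease, measured 12.59, 13.00, 12.46 and 12.49 in WT and 12.76, 12.65 and 12.85 in AR113Q. The Lonp1 groups overlapped and differed by 0.12 ± 0.18 (SE), with the sign reversed (-0.24) on slide 2.

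**Figure D1:**
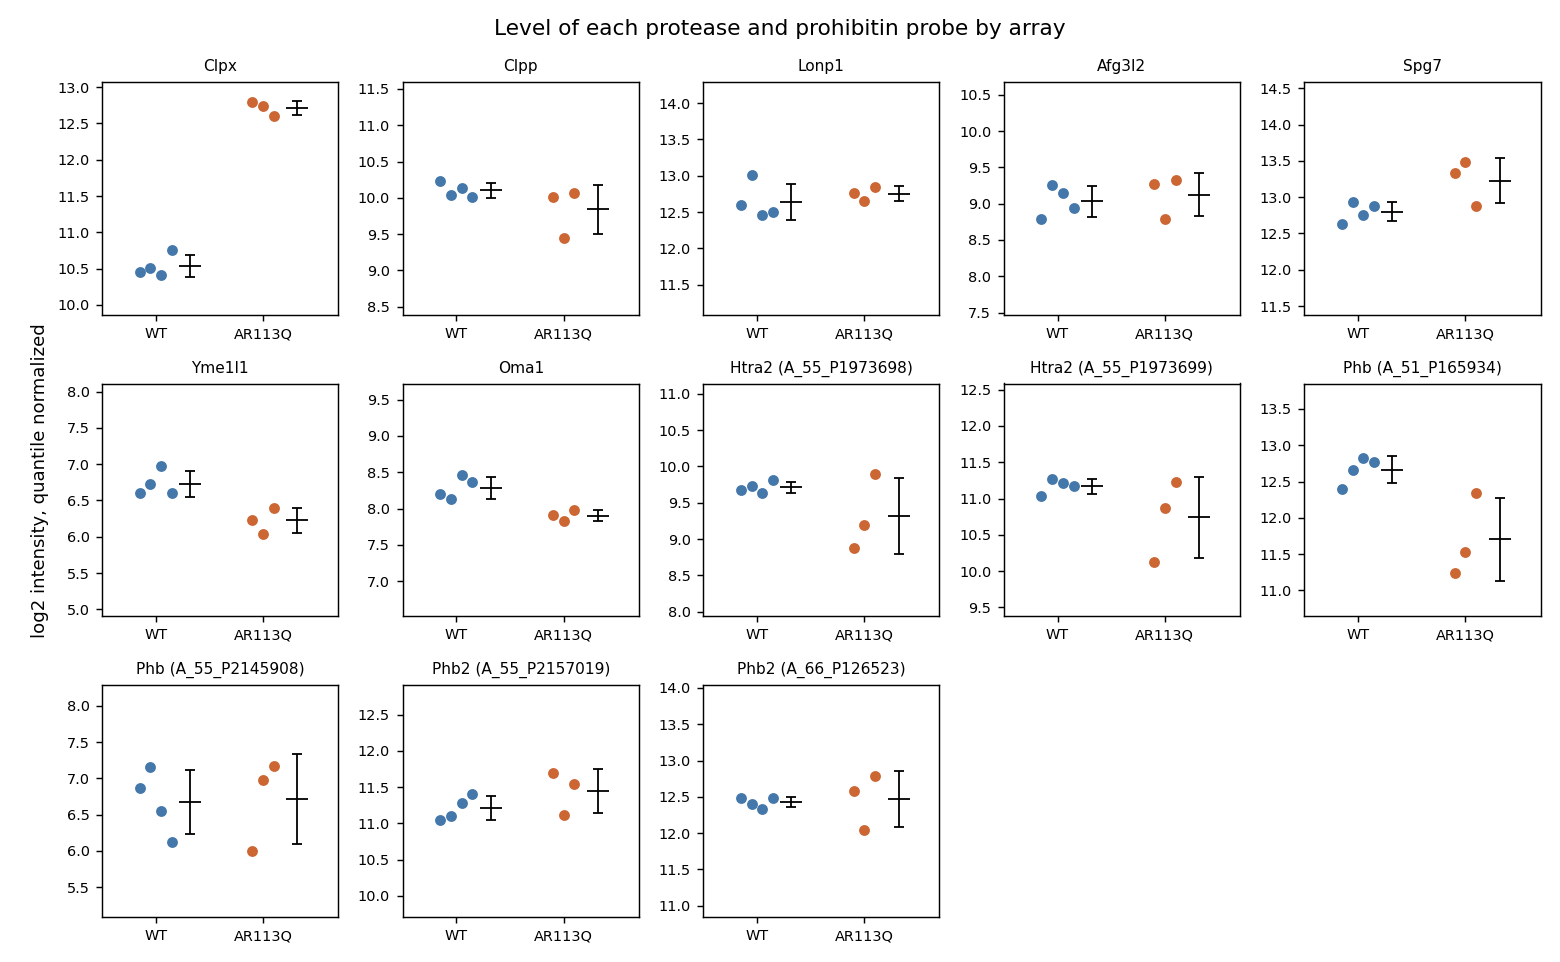
Log2 intensity after quantile normalization of each of the 13 probes on the 4 WT arrays (blue) and the 3 AR113Q arrays (orange), with the mean and SD of each group as black bars. Every panel spans the same number of log2 units around its own mean, and heights are not comparable between probes. Clpx is separated by 2.18 between the group means, Phb A_51_P165934, Yme1l1 and Oma1 lie lower in AR113Q without overlap, and the other 9 probes overlap.

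The m-AAA protease subunits showed small differences. Afg3l2 measured 8.79, 9.26, 9.15 and 8.94 in WT and 9.26, 8.79 and 9.32 in AR113Q, with the AR113Q arrays on both sides of the WT range, and a difference of 0.09 ± 0.20 (SE). Spg7 measured 12.63, 12.93, 12.76 and 12.87 in WT and 13.33, 13.48 and 12.88 in AR113Q. The first 2 AR113Q arrays lay above every WT array and the third lay within the WT range, a difference of 0.43 ± 0.19 (SE), which was 0.61 without the third AR113Q array. Within arrays, Spg7 minus Afg3l2 was 0.30, 0.94 and -0.21 in AR113Q and between -0.16 and 0.17 in WT.

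Of the proteases that cleave OPA1, Yme1l1 measured 6.61, 6.73, 6.98 and 6.60 in WT and 6.23, 6.04 and 6.40 in AR113Q. All 3 AR113Q arrays lay below all 4 WT arrays, a difference of -0.50 ± 0.17 (SE). This probe was dim, at a scanner signal of 71 to 115, and its difference moved with the processing: it was -0.69 with scaling to the 75th percentile in place of quantile normalization, -0.21 with normexp background correction and -0.14 in the values the authors normalized. Oma1 measured 8.20, 8.13, 8.46 and 8.37 in WT and 7.91, 7.83 and 7.98 in AR113Q. Its groups did not overlap either, and the difference was -0.38 ± 0.15 (SE), but it was not among the probes called in the limma fit; in the values the authors normalized it was -0.23. Yme1l1 minus Oma1 overlapped between the genotypes (-0.23 to -0.02 in AR113Q and -0.21 to 0.16 in WT).

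Htra2, the intermembrane space protease, was read by 2 probes on chromosome 6 that gave the same picture. Probe A_55_P1973698 measured 9.67, 9.73, 9.64 and 9.81 in WT and 8.87, 9.19 and 9.90 in AR113Q. Probe A_55_P1973699 measured 11.03, 11.26, 11.21 and 11.17 in WT and 10.13, 10.87 and 11.22 in AR113Q. On both, the WT arrays lay close together, the first AR113Q array was lowest and the third lay at or just above the level of WT, so the groups overlapped. The differences were -0.39 ± 0.24 and -0.43 ± 0.25 (SE); they were -0.17 and -0.12 without the first AR113Q array and -0.68 and -0.67 without the third.

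The prohibitins, whose products form 1 complex, differed unequally between the genotypes. Phb on probe A_51_P165934 measured 12.40, 12.65, 12.82 and 12.77 in WT and 11.24, 11.52 and 12.34 in AR113Q. All AR113Q arrays lay below all WT arrays, although the third AR113Q array was only just below the lowest WT array. The difference was -0.96 ± 0.27 (SE), or 1.95-fold lower in AR113Q. It was -0.73 without the first AR113Q array and -0.87 without the second. The other Phb probe, A_55_P2145908, was dim, with a scanner signal of 64 to 165, and did not show it. It measured 6.86, 7.15, 6.55 and 6.13 in WT and 6.01, 6.97 and 7.17 in AR113Q, a difference of 0.04 ± 0.34 (SE) with overlapping groups. Without 1 AR113Q array it was between -0.18 and 0.40. Over all arrays the lower level of Phb was thus seen on the bright probe alone, while on slide 2 both probes were lower in AR113Q (-1.41 on the bright probe and -1.15 on the dim one).

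Phb2 gave no difference beyond the spread on either probe. Probe A_55_P2157019 measured 11.05, 11.10, 11.28 and 11.40 in WT and 11.69, 11.11 and 11.55 in AR113Q, a difference of 0.24 ± 0.19 (SE). Without 1 AR113Q array it was between 0.12 (without the first) and 0.41 (without the second). Probe A_66_P126523 measured 12.49, 12.41, 12.34 and 12.49 in WT and 12.58, 12.04 and 12.78 in AR113Q, a difference of 0.04 ± 0.20 (SE). Both overlapped between the genotypes, and on both the second AR113Q array was the lowest of its group. With the brightest probe of each gene, Phb minus Phb2 within arrays was -1.57, -0.75 and -0.67 in AR113Q and -0.32 to 0.25 in WT, without overlap.

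**Figure D2:**
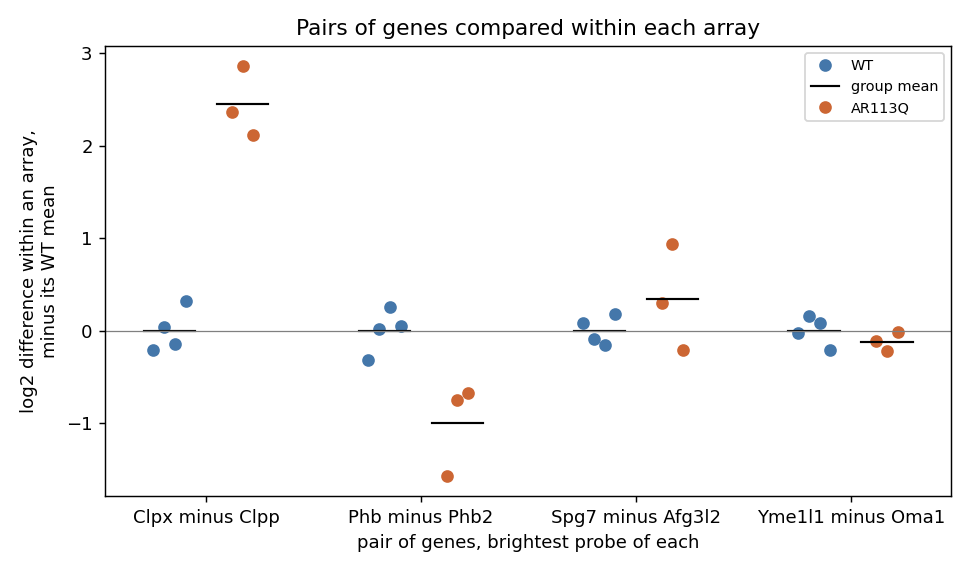
Difference in log2 intensity between 2 genes on the same array, minus the WT mean of that difference, for 4 WT arrays (blue) and 3 AR113Q arrays (orange), with the group mean as a line. Clpx minus Clpp (AR113Q mean 2.44) and Phb minus Phb2 (AR113Q mean -0.997) are separated between the genotypes, and the other pairs overlap.

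Over the whole set, 1 of 13 probes was called higher in AR113Q (Clpx) and 2 lower (Phb A_51_P165934 and Yme1l1) at an adjusted p of 0.05 in the limma fit over all kept probes, where 22.2% of probes were called higher and 21.6% lower. With an absolute log2 difference of at least 1 as well, Clpx alone was called; this held for 12.2% of all kept probes in the higher and 12.6% in the lower direction. All AR113Q arrays lay above all WT arrays for 1 probe and below them for 3, compared with 25.4% and 24.2% of kept probes. Neither lower call was made without the first or without the second AR113Q array; that of Yme1l1 was also absent without any 1 of the WT arrays and was made under 7 of 21 settings, and that of Phb under 18 of 21. The set was chosen on this contrast, so nothing is read from these counts. Over the 4 arrays low in slow fiber markers, Clpx differed by 2.16, Clpp by -0.40, Lonp1 by 0.16, Spg7 by 0.65, Yme1l1 by -0.47, Oma1 by -0.41, Htra2 by -0.71 and -0.60, and Phb A_51_P165934 by -1.20. Afg3l2 differed by 0.16 and Phb2 A_55_P2157019 by 0.17 over these arrays, while Phb2 A_66_P126523 (-0.18) and Phb A_55_P2145908 (-0.0063) turned sign. The median difference of the 13 probes was 0.04, with 7 above and 6 below 0, and without Clpx the differences ran from -0.96 to 0.43. The spread between AR113Q arrays exceeded that between WT arrays in 10 of 13 probes, and in 66.8% of all kept probes.

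**Figure D3:**
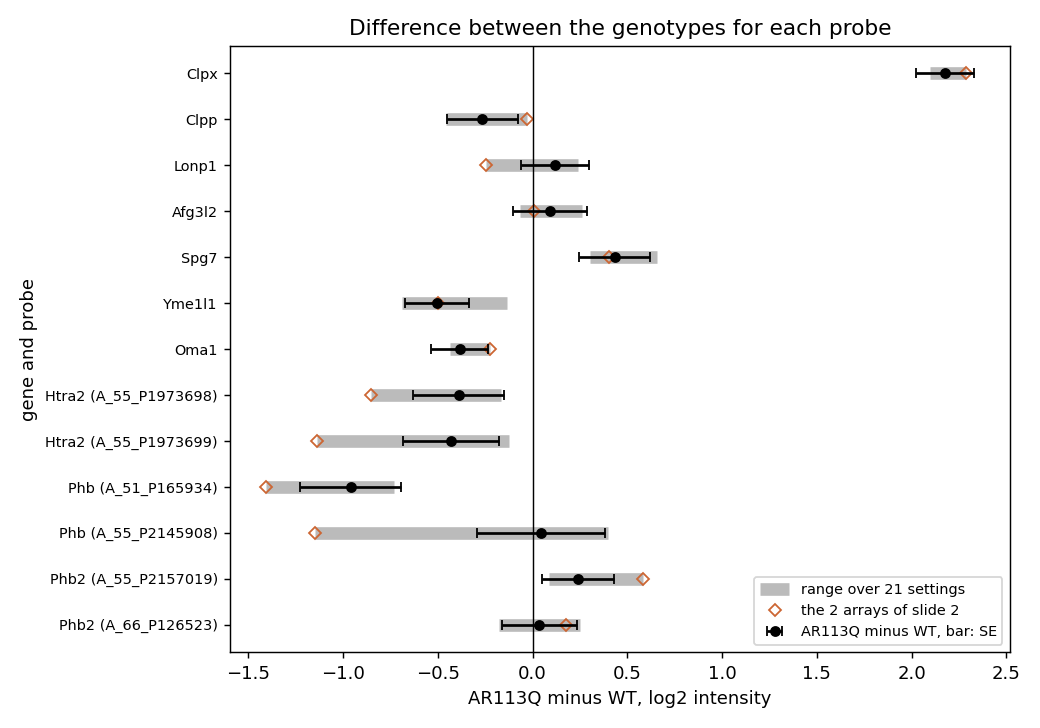
AR113Q minus WT in log2 intensity for each probe (black points, with the SE of the limma fit), the difference between the 2 arrays of slide 2 (open diamonds), and the range over 21 settings of processing, model and arrays used (grey bars). The setting with slide as a fixed effect gives the same value as the diamond, and the Lonp1 bar crosses 0 through it alone. Clpx stays between 2.10 and 2.29 and Phb A_51_P165934 between -1.41 and -0.73, while the bars of Lonp1, Afg3l2, Phb A_55_P2145908 and Phb2 A_66_P126523 cross 0.

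The genes with the profile most like that of Clpx were found by the smallest root mean square difference between array-centred log2 profiles over the 7 arrays, among 17068 probes well above background on all of them. They were Tuba1c (a tubulin, root mean square difference 0.071), Map3k8 (a MAP kinase kinase kinase, 0.081), Bnip3l (a mitophagy receptor of the outer membrane, 0.12), Zfand2a (an arsenite-inducible partner of the proteasome, 0.13) and BC005537 (0.13). Their AR113Q minus WT differences lay between 2.04 and 2.33, which the way they were chosen fixes.

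Other mitochondrial peptidases were examined next. Of 12 listed genes, 11 had a kept probe (Xpnpep3 had none). None rose, 2 fell and 9 did not pass the test, where 22.2% of all kept probes were called higher and 21.6% lower, and the median difference was -0.11. Lactb, a serine protease-like filament protein, fell by 0.58 (limma, adjusted p = 0.046), with overlapping groups and a call in 10 of 21 settings. Metap1d, a methionine aminopeptidase, fell by 0.49 (limma, adjusted p = 0.026), called in 12 of 21. Both calls were lost without any 1 of several arrays of either genotype, the first and second AR113Q arrays among them. The subunits of the presequence-processing peptidase gave -0.11 (Pmpca) and -0.11 (Pmpcb), and the inner membrane peptidase subunits -0.46 (Immp1l) and -0.12 (Immp2l). The intermediate peptidase Mipep gave -0.43, without overlap but short of the threshold, and -0.26 without the first AR113Q array. The rhomboid protease Parl gave 0.32 and the presequence protease Pitrm1 0.38, both without overlap but short of the threshold, and Afg3l1, the mouse paralog of Afg3l2, gave -0.04. Atp23 gave 1.06 ± 0.54 (SE) on a dim probe that was well above background on only 1 WT array.

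Mitochondrial chaperones and import motor genes included 1 that rose and 4 that fell of 12 measured, beside 22.2% higher and 21.6% lower over all kept probes, with a median difference of -0.11. These were named after their values were seen, as were, in this list and those that follow, all genes other than Trib3, Atf4 and Nrf1. Clpb, an AAA+ disaggregase of the intermembrane space, rose by 0.89 ± 0.17 (SE; limma, adjusted p = 0.0042). Hspd1, the matrix chaperonin, fell by 0.86 ± 0.18 (adjusted p = 0.0055), while its co-chaperonin Hspe1 gave -0.30. Hscb, a co-chaperone of iron-sulfur cluster assembly, fell by 0.68 (adjusted p = 0.0067), Dnaja3, a matrix J-protein, by 0.70 (adjusted p = 0.019), and Bcs1l, which assembles complex III, by 0.96 (adjusted p = 0.026). The calls of Clpb and Hspd1 were made under 20 of 21 settings. Dnaja3 was not called without the second AR113Q array, and Bcs1l was not called without either the first or the second AR113Q array or any of 3 WT arrays, its 3 AR113Q values being 8.90, 9.42 and 10.17. Hspa9, the matrix HSP70, gave 0.12 and did not pass.

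Among 14 partners and substrates of these proteases, 2 rose and 2 fell, beside 22.2% and 21.6% of all kept probes, with a median difference of 0.01. Maip1, which binds the m-AAA protease, rose by 0.92 ± 0.18 (SE; limma, adjusted p = 0.0043), called under 19 of 21 settings. Pink1, a kinase degraded after cleavage in the inner membrane, rose by 0.60 (adjusted p = 0.038) under 12 of 21 settings, and the call was lost without any 1 of the WT arrays or the second AR113Q array. Dnajc19, a prohibitin-binding J-protein of the inner membrane, fell by 0.83 ± 0.22 (SE; adjusted p = 0.016), called under 19 of 21. Xiap, the caspase inhibitor that released HTRA2 binds, fell by 0.59 (adjusted p = 0.015), called under 18 of 21. Opa1 gave 0.28 and Stoml2, a stomatin-family scaffold, -0.25, neither past the threshold. Alas1, the first enzyme of heme synthesis, gave -0.56 ± 0.32 (SE) with 1 WT array left out as an outlier spot, and did not pass. Alas2, the erythroid form of this enzyme, measured 9.06, 9.11, 11.14 and 12.37 in WT and 9.35, 9.16 and 9.37 in AR113Q, a difference of -1.13 ± 0.76 (SE) that did not pass; WT arrays 3 and 4 were high, as they were for the erythroid markers, of which it is one.

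Of 8 genes that regulate the response to mitochondrial stress, 4 rose and 0 fell, all 4 by at least 1, with a median difference of 0.70; over all kept probes 22.2% were called higher and 21.6% lower, and 12.2% and 12.6% with a difference of at least 1. Trib3, a pseudokinase target of ATF4, measured 6.29 to 7.25 in WT and 9.21, 8.37 and 9.65 in AR113Q, a difference of 2.31 ± 0.33 (SE; limma, adjusted p = 0.0012). Atf4, a transcription factor of the integrated stress response, measured 14.70 to 14.95 in WT and 16.52, 16.13 and 16.34 in AR113Q, a difference of 1.5 ± 0.16 (SE; limma, adjusted p = 0.00034). Nrf1, nuclear respiratory factor 1, measured 7.09 to 7.60 in WT and 8.87, 8.57 and 8.67 in AR113Q, a difference of 1.30 ± 0.17 (SE; limma, adjusted p = 0.00089). These groups did not overlap, and each of the 3 was called under 20 of 21 settings. The Nrf1 difference moved with the processing and fell under the threshold of 1 in some settings. It was 0.802 in the values the authors normalized and 0.909 with normexp background correction. It was 0.984 with the mean spot signal without background subtraction, a setting chosen after seeing the data. The lowest differences over the settings were 1.46 for Trib3 and 1.26 for Atf4. Atf5, a related factor named after its values were seen, rose by 1.06 ± 0.34 (SE; adjusted p = 0.035), and its AR113Q arrays were spread (15.21, 14.03 and 13.61). Without the first AR113Q array the difference was 0.60, under the threshold of 1; it was called under 12 of 21 settings and not without the second AR113Q array or any 1 WT array. Ddit3 (0.05), Cebpb (0.34), Eif2ak1 (0.28) and Hsf1 (-0.38) did not pass. The 8 genes were listed with results on these arrays known.

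Of 11 genes used as a measure of mitochondrial content, 1 rose (Tomm40, an outer membrane import channel, by 0.59; limma, adjusted p = 0.023) and 2 fell (Chchd3, a cristae organizing protein, by 0.70, adjusted p = 0.030; Vdac3, an outer membrane channel, by 0.64, adjusted p = 0.034). These calls were made under 15, 14 and 11 of 21 settings, and each was lost without the first AR113Q array and without some of the others. Cs, citrate synthase, gave 0.03, and the median of the list was -0.04. In all 5 lists, 8 of 56 measured genes rose and 10 fell, beside the 22.2% and 21.6% of all kept probes, and over the 4 arrays low in slow fiber markers 4 rose and 4 fell, where 14.9% of all kept probes were called higher and 14.6% lower. On slide 2, whose arrays are part of the fit, the difference was 1.96 for Trib3, 1.77 for Nrf1, 0.78 for Clpb and -1.02 for Hspd1.

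**Figure D4:**
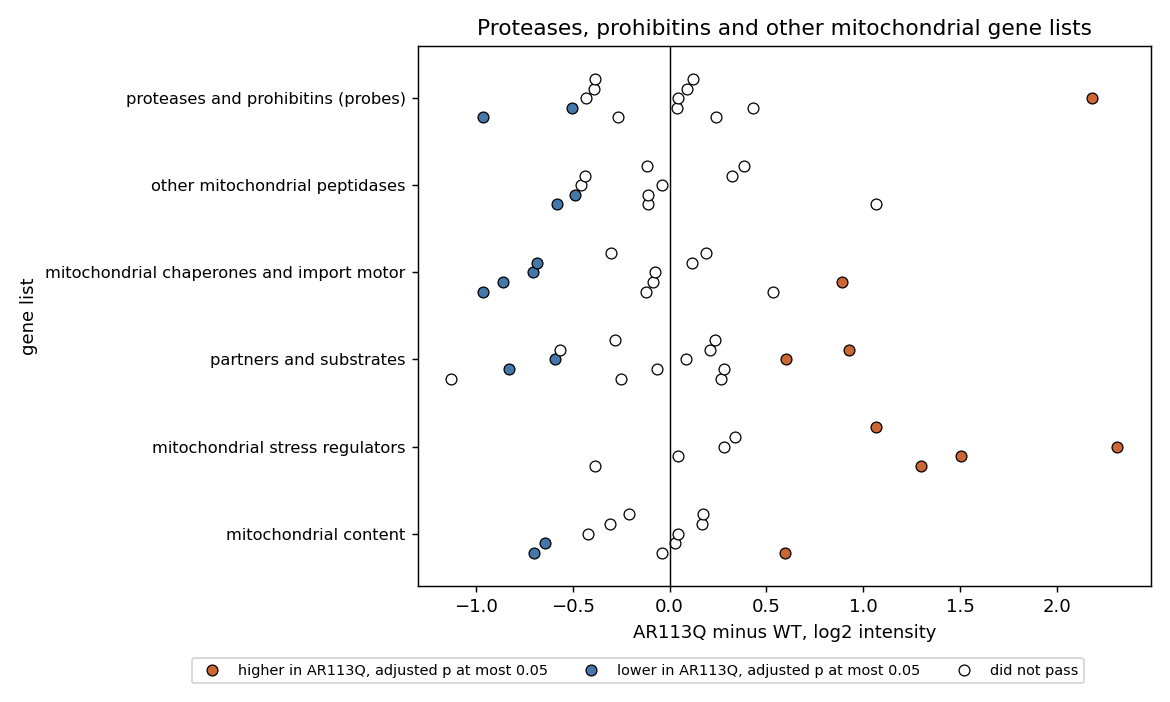
AR113Q minus WT in log2 intensity for the 13 protease and prohibitin probes and for the 56 measured genes of 5 other mitochondrial lists, each gene by its brightest kept probe, with genes past an adjusted p of 0.05 (limma) filled. Increases of 1 or more that passed are Clpx and 4 stress regulators.

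Across all probes, arrays correlated at r = 0.983 to 0.987 within WT, 0.969 to 0.981 within AR113Q and 0.908 to 0.943 between the genotypes, and 47.6% to 55.8% of probes were well above background per array. All 8 skeletal muscle markers were measured; 0 rose and 2 fell, and their summed normalized intensity was 763309 to 826176 in WT and 544770 to 728053 in AR113Q. Of 5 adipocyte markers 3 fell (sum 57589 to 95817 in WT and 37106 to 44942 in AR113Q), of 5 fibroblast markers 3 fell (75421 to 90202 and 71754 to 96723), and of 5 macrophage markers 3 fell and 1 rose (5594 to 10250 and 3656 to 4615). The fibroblast markers, named after their values were seen, were split. Col3a1 differed by -4.62, Col1a1 by -3.27 and Lum by -2.39, each without overlap. Dcn, the brightest and so the main part of the sum, gave 0.41 without overlap and Pdgfra -0.27, neither past the threshold. Of the remaining lists, 1 of 6 fast fiber markers fell, 1 of 6 slow fiber markers rose, 1 of 5 endothelial markers rose, 1 of 5 Schwann cell markers rose and 1 fell, and 0 of 4 erythroid markers passed, whose sum was 44432 to 214435 in WT, highest in WT arrays 3 and 4, and 45237 to 57791 in AR113Q. Of 3 measured genes of the Y chromosome 2 rose, and Xist had no kept probe. These counts stand beside 22.2% of all kept probes called higher and 21.6% called lower. The part of these differences in those of the protease and prohibitin genes was not tested.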

How the data were processed

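Quadriceps RNA of 4 WT and 3 AR113Q mice was hybridized to 1-color (Cy3) Agilent arrays. Per the labels, Agilent Feature Extraction 10.7.3.1 was used, and the authors deposited scanner files with a background-subtracted intensity per spot, not normalized between arrays, and a table of normalized log2 values. The protease and prohibitin genes and the other gene lists were chosen with earlier results of these data known.

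Log2 intensity was taken, spots marked as outliers (94 to 151 per array) and control spots were removed, and arrays were brought to a common distribution by quantile normalization. Repeated spots were averaged by probe. The array held 39429 probes, of which 20987 were well above background on at least 3 arrays and were kept. RefSeq accessions (GRCm38.p6, used for names and promoter sequences only) named 28330 probes. The genotypes were compared probe by probe by the moderated linear model of limma 3.58.1 (R 4.3.3), and p-values were adjusted by Benjamini-Hochberg across the kept probes. The procedure was run on simulated data with independent noise for each probe and array. These data held no slide or fiber effect, so the run says nothing about those limits. SE is that of the fit. A probe was called at an adjusted p of at most 0.05, also with an absolute log2 difference of at least 1. Genes outside the set were represented by their brightest kept probe. The genes named were all members, the other peptidases, up to 3 genes per list in each direction past both thresholds and the 5 closest to Clpx in profile; others are marked as named after their values were seen.

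The arrays lay on 5 slides with 1 scan date. Only slide 2 held both genotypes (the second WT and the first AR113Q array). In a fit with slide as a fixed effect, the difference therefore rests on these 2 arrays. Elsewhere slide and genotype cannot be told apart. The spread within slides in that fit comes from WT arrays 3 and 4, which shared slide 4. That fit therefore cannot judge the difference by the spread between mice of both genotypes. The sources say 1 mouse per array, so p-values measure the spread between these mice. Their number limits the precision.

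The settings varied were the normalization (scaling to the 75th percentile), the background correction (normexp, offset 50), the deposited normalized values, no filter or a filter on all 7 arrays, outlier spots kept, an intensity trend, array weights, slide as a random or fixed effect, replicate number as a block, each array left out, and the brightest probe or mean over probes of a gene. The mean spot signal with no background taken off, and the 4 arrays low in slow fiber markers alone (Myh7 below the middle of its range), were chosen after seeing the data. A further promoter motif is not reported here.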

Additional observations from a re-analysis of the deposited data

How the results depend on the processing

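Clpx, which was chosen for its difference on these arrays, differed by 2.10 to 2.29 over 21 settings. The settings vary the processing, the model and the arrays used, and the range is no independent support. With slide as a fixed effect, where the difference rests on 1 array of each genotype, no probe was called in either direction. That setting is read for its differences only, because its spread comes from other arrays. Instead of 2 protease and prohibitin probes lower, 1 was called with normexp and with no filter on dim probes. The count was also 1 with an intensity trend and with the replicate block. So it was with the mean spot intensity without background subtraction, a setting chosen after seeing the data. Of all probes, 19.8%, 10% (of 39429 unfiltered probes), 22.5%, 16.9% and 19.3% were called lower under these, in this order, against 21.6%. With the mean over a gene's probes, where genes and not probes are counted, 1 gene of the set was called lower. The share over all genes is not given for that setting. Instead of 1 higher, 2 were called with the deposited normalized values and with array weights (19.8% and 22.4% of all probes), where Spg7 was added; with the deposited values the 2 lower were Phb A_51_P165934 and Oma1 (-0.23) in place of Yme1l1 (-0.14). Companion genes lower were 6 with no filter on dim probes, instead of 10, where 10% of all probes were called lower. Over the 4 arrays low in slow fiber markers, also chosen after seeing the data, 1 protease or prohibitin probe was called lower (Phb A_51_P165934), and companion genes higher were 4 and lower 4, beside 14.9% and 14.6% of all probes.

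Without 1 array at a time, 3749 to 4790 probes were called higher and 3559 to 4644 lower; protease and prohibitin probes higher were 1 to 2 and lower 0 to 4 (0 without the first or the second AR113Q array, 4 without the third); companion genes higher were 5 to 9 and lower 4 to 12. With the replicate block, companion genes higher were 5 and lower 4, beside 17.5% and 16.9% of all probes. The replicate numbers showed no clear pairing of the samples. The deviations of same-numbered arrays from their group means correlated at 0.041, -0.016 and 0.156, and 1 of 3 pairs was closest to its own number. With so few arrays this cannot exclude a pairing. Peptidases that did not pass the test changed sign: Afg3l1, near 0, with scaling to the 75th percentile (0.0666) and slide as a fixed effect (0.0186) and over the 4 arrays low in slow fiber markers (0.0256), and Atp23, at 1.06 on a dim probe, with slide as a fixed effect (-0.496). Without 1 array at a time, Afg3l1 ran from -0.100 to 0.0023, Pmpcb from -0.405 to 0.114 and Immp2l from -0.397 to 0.0507, the values above 0 being without the second, the first and the second AR113Q array. The cause of these changes was not tested. Dim probes, such as those of Yme1l1, Atp23 and Phb A_55_P2145908, are limited by signal over background.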
